A study of Mus musculus with 8 samples.

Results

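The collagen chain genes are the rows of the deposited expression table whose mouse symbol has the form of Col, a number, the letter a and a number, such as Col1a1. The pattern took 43 of the 23107 rows of the table. They were split by the kind of collagen they encode into 11 fibrillar chain genes (types I, II, III, V, XI, XXIV and XXVII), 6 basement membrane chain genes (type IV) and 26 other chain genes. The pattern itself reads only the symbol. The row Emid2, an older symbol of Col26a1 in RefSeq, lies outside the pattern and is not among the 43.

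RNA bound to DCP1A was recovered from mouse ovarian cortex at postnatal day 8 by RNA immunoprecipitation (RIP), and 4 RIP libraries were set against 4 input libraries of the same kind of tissue. DCP1A activates the removal of the mRNA cap and is a component of cytoplasmic RNA granules. The question of the study was which RNAs associate with DCP1A in the primary oocytes of this tissue. The RIP group received an antibody to DCP1A, and no control-antibody library was analysed here, so RNA carried along without DCP1A cannot be told apart from RNA bound to it. Strain, genotype, the number of animals in a library and whether libraries with the same number share tissue are not given in the labels. All p-values therefore measure the spread between these libraries, which may be technical.

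Collagens are made as pro-alpha chains that wind around each other into a rigid helix. Fibrillar collagens, chiefly types I and III, are secreted by fibroblasts and stromal cells and assemble into banded fibrils. Type IV collagen forms a sheet-like network in basement membranes, and in the ovary such a membrane surrounds the granulosa cells of each follicle as well as the vessels and the surface epithelium. The other collagens bind to fibrils, form beaded filaments or short networks, or span the cell membrane.

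Collagen mRNAs were found in the DCP1A RIP as in the input, with RIP and input levels that overlapped for all tested chains but Col13a1, and no chain passed the test of a difference. Of the 41 chains that entered edgeR's quasi-likelihood test, 0 were higher and 0 lower at an adjusted p under 0.05, against 0% higher and 0.0409% lower (6 genes) of all 14667 genes tested. DESeq2 called 0 chains as well, against 0.384% of all genes it tested. The lowest adjusted p of a chain was 0.622. At an unadjusted p under 0.05 there was 1 chain higher in RIP (Col13a1, 3.15% of all tested genes were higher at this level) and 0 lower (4.28% of all tested genes). The fitted log2 fold change of RIP over input was above 0 for 30 of 41 chains, or 73.2%, against 48.3% of all tested genes. The median log2 fold change was 0.20 for the fibrillar, 0.22 for the basement membrane and 0.16 for the other chains, against -0.02 over all tested genes. The median standard error of a single chain was 0.35 on the same log2 scale. The class medians moved with 2 libraries. Without RIP library 1 and input library 3 the medians were -0.09, -0.11 and 0.02, 18 of 41 chains lay above 0, and 0 chains passed the test, against 0.148% of all genes. This pair was picked after the collagen values were seen. RIP library 1 was highest in 10 of the 12 chains with the highest mean CPM, and input library 3 lowest in 10. Leaving both out therefore lowers the fold changes of such chains by construction, and no conclusion is drawn from the shift.

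Libraries held 13098153 to 25757618 counts. The tissue label was checked with marker genes: the summed level of 14 oocyte markers was 3184 to 4149.9 CPM (read counts scaled to library size) in RIP and 3132 to 4739 CPM in input, and that of 12 granulosa cell markers was 1709 to 2711 CPM in RIP and 1396 to 3065 CPM in input. The summed level of 13 stromal markers was 1109.7 to 1274 CPM in RIP and 1103 to 1540.1 CPM in input. Of these 11 had enough counts for the test, while Dpt and Pi16 did not. Wt1 had the highest level of the list, a mean of 376 CPM over all libraries. Markers of skeleton, skin and fat summed to at most 5.72 CPM in RIP and 14.4 CPM in input, and Ckm, Krt5 and Krt14 of that list were at 0 in all 8 libraries. CPM values were scaled by edgeR's TMM factors and are not divided by transcript length, so they compare libraries for a gene and not genes with each other. In such bulk tissue, fewer cells of a type and less RNA per cell cannot be told apart.

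Promoter windows are shown for the 2 fibrillar and the 2 basement membrane chains with the highest mean CPM, the last 2 of which share a locus. They run from 250 bases before to 50 bases after an annotated start in RefSeq (GRCm38.p6, the patch release of mm10), 5′ to 3′ on the strand of the gene. The Col4a1 window lies at a start inside its annotated span, which ends at chr8:11312889, and not at that end. Capitals mark 3 motifs searched on both strands: the box spelled CCAAT, the GC box spelled GGGCGG and the TATA box spelled TATAAA. On the opposite strand the first reads ATTGG in the printed letters, the GC box reads CCGCCC and the TATA box reads TTTATA. Col1a2 and Col3a1 encode fibrillar chains and are at chr6:4505368-4505667 (plus strand) and chr1:45311288-45311587 (plus strand). Col4a1 and Col4a2 encode basement membrane chains and are at chr8:11312777-11313076 (minus strand) and chr8:11312555-11312854 (plus strand).
Col1a2: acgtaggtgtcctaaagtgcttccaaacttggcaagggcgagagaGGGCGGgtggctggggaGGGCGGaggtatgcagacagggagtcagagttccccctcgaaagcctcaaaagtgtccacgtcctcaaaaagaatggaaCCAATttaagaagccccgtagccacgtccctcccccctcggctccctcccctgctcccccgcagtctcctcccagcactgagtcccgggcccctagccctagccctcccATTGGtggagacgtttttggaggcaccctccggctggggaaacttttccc
Col3a1: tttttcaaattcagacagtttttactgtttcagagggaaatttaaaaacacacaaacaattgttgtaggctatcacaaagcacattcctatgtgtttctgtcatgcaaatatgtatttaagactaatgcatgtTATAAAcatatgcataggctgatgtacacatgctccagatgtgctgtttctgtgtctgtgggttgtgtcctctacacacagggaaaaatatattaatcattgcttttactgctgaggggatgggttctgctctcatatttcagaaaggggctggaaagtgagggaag
Col4a1: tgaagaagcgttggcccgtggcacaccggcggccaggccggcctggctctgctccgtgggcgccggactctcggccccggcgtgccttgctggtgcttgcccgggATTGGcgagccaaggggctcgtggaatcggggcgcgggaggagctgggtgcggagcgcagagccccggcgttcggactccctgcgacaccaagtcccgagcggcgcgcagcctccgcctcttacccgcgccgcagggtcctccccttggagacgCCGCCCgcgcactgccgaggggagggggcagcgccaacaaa
Col4a2: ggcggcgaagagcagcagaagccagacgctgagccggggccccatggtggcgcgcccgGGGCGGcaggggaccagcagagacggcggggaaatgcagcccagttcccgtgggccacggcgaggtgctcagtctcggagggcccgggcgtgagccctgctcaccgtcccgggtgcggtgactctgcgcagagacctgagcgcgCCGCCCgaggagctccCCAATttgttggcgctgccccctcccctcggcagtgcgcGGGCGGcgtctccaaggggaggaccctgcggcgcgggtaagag

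The Col4a1 and Col4a2 genes are transcribed away from each other, and their windows cover the same 78 bases, chr8:11312777-11312854, each read on its own strand. The only GC box of the Col4a1 window lies in these bases and is marked in the Col4a2 window as well. The Col4a2 window also holds other GC boxes. GC content was 74.0% in the Col4a1 window, 73.7% in the Col4a2 window, 61.0% in the Col1a2 window and 37.7% in the Col3a1 window. CCAAT was found in 13 of 38 collagen windows, which belong to 35 of the 43 genes, against 37.4% of 32851 windows. These leave out the windows of a chromosome without collagen chain genes. The GC box GGGCGG was found in 23 of 38 collagen windows, against 35.7% of the same windows. TATAAA was found in 5 of 38 collagen windows, against 13.6% of the same windows. Matches are descriptions of letters and not of bound sites.

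Among fibrillar chains, the mRNAs of types I and III were present in every RIP library at levels that overlapped those of the input. Col1a1 (chr11:94936224-94953042, mm10) encodes the alpha 1 chain of type I collagen, the main fibril of connective tissue. It had 2191, 1655, 1308 and 1463 CPM in RIP libraries 1 to 4, against 1756, 2007, 1045 and 1244 CPM in input libraries 1 to 4. The RIP and input values interleaved, with RIP library 1 highest and input library 3 lowest, and the log2 fold change was 0.13 (95% interval -0.45 to 0.70, adjusted p = 0.932). Col1a2 (chr6:4505618-4541543), the alpha 2 chain of the same fibril, had 2843, 1981, 1397 and 1504 CPM in RIP libraries 1 to 4, against 2215, 2274, 1389.9 and 1363 CPM in input libraries 1 to 4. It ran with Col1a1 in being highest in RIP library 1, and the groups overlapped, with a log2 fold change of 0.09 (95% interval -0.52 to 0.71). Col3a1 (chr1:45311538-45349706) encodes the chain of type III collagen, a homotrimer found in the fibrils of distensible tissues. Its levels were 2678, 1778, 1333 and 1509.8 CPM in RIP libraries 1 to 4, against 1790.4, 2111, 1131 and 1269.7 CPM in input libraries 1 to 4. Again RIP library 1 was highest and input library 3 lowest, and the log2 fold change of 0.21 had an interval of -0.40 to 0.82.

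Type V chains nucleate and limit the width of type I fibrils. Col5a1 (chr2:27886381-28039510) had 868, 602, 534 and 579.5 CPM in RIP libraries 1 to 4, against 807, 697, 349 and 426 CPM in input libraries 1 to 4. Both inputs 1 and 2 lay among the RIP values while inputs 3 and 4 lay below all of them, and the log2 fold change was 0.18 (95% interval -0.43 to 0.79). Col5a2 (chr1:45374331-45503282) had 399, 222, 227 and 229 CPM in RIP libraries 1 to 4, against 276, 224, 142 and 217 CPM in input libraries 1 to 4. Only RIP library 1 stood above the inputs; the other RIP libraries lay between the inputs. The log2 fold change of Col5a2 was 0.33 with all libraries (95% interval -0.25 to 0.90, adjusted p = 0.803). It was -0.08 without RIP library 1 and input library 3, the highest and the lowest library for Col5a2.

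The remaining fibrillar chains were at lower CPM. Col11a1, a type XI chain known from cartilage fibrils, had the only negative log2 fold change of the class, -0.06. Col27a1 (0.31), Col24a1 (0.20), Col11a2 (0.33) and Col5a3 (0.34) had log2 fold changes above 0 with standard errors of 0.35, 0.60, 0.56 and 1.54. Col24a1 ran up to 17.2 CPM in RIP, and in input from 1.53 to 26.3 CPM. Col2a1, the chain of cartilage type II collagen, had too few counts for the test, with 0, 26, 0 and 21 counts in RIP libraries 1 to 4 and 0, 0, 15 and 0 counts in input libraries 1 to 4.

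**Figure D1:**
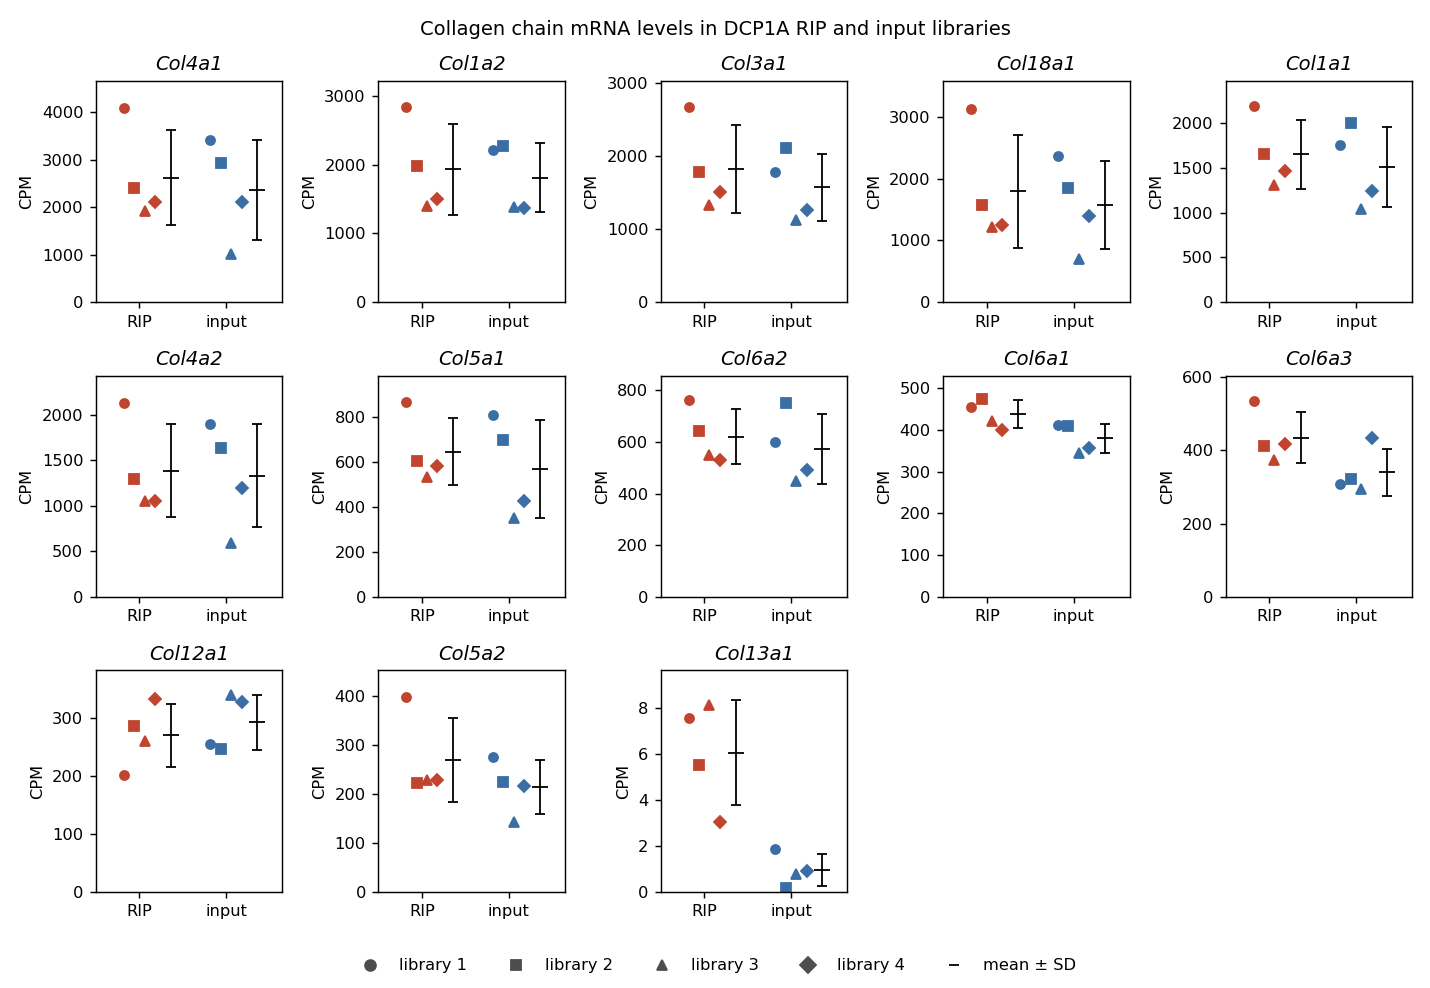
Levels in CPM (linear axes from 0, 1 panel a chain) of 13 collagen chains, with the 4 RIP libraries left of the 4 input libraries, markers giving the library number and bars the mean ± SD. RIP library 1 is the highest of all 8 libraries in 10 of the 12 chains with the highest mean CPM and input library 3 the lowest in 10, and only Col13a1 has its groups apart.

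Of the basement membrane chains, Col4a1 and Col4a2 ranged more widely between libraries than the type I and III chains did, and outside RIP library 1 their RIP values lay inside the input range. Col4a1 (chr8:11198423-11312889) encodes the alpha 1 chain of type IV collagen, which with the alpha 2 chain makes the network of most basement membranes. Its levels were 4083, 2399.9, 1915 and 2109 CPM in RIP libraries 1 to 4, against 3424, 2937, 1015 and 2111 CPM in input libraries 1 to 4. RIP library 1 lay above all inputs, input library 3 lay below all RIP libraries, and the other libraries interleaved. The log2 fold change was 0.15 (95% interval -0.60 to 0.90, adjusted p = 0.941). Col4a2 (chr8:11312805-11449287) had 2129, 1294, 1057 and 1049.8 CPM in RIP libraries 1 to 4, against 1891, 1638, 596 and 1196 CPM in input libraries 1 to 4. The order of the libraries was close to that of Col4a1, and the log2 fold change was 0.06 (95% interval -0.66 to 0.78). The annotated spans of the 2 genes overlap by 85 bp on opposite strands, and whether counting used strand is not given in the sources used here.

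The other type IV chains make the networks of kidney, lung, eye and some smooth muscle membranes. Col4a5 (chrX:141475370-141689236) had the largest log2 fold change of the class, 0.48 ± 0.30 (SE, adjusted p = 0.738). It had 436, 269, 212 and 209 CPM in RIP libraries 1 to 4, against 263, 231, 116 and 196 CPM in input libraries 1 to 4. RIP libraries 3 and 4 lay between the inputs, and RIP library 1 far above all of them. Col4a6, which lies beside Col4a5 on the X chromosome, had a log2 fold change of 0.30 and ranged from 41.0 to 81.7 CPM in RIP and from 29.2 to 68.4 CPM in input. Col4a3 and Col4a4, another neighbouring pair, had log2 fold changes of 0.38 and 0.13. Col4a3 ranged from 46.9 to 102 CPM in RIP and from 45.5 to 68.5 CPM in input, and Col4a4 from 199 to 312 CPM in RIP and from 171 to 235 CPM in input. None of these 4 passed the test, and their groups overlapped. The spans of Col4a3 and Col4a4 overlap by 114 bp.

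Of the other chains, Col18a1, type VI collagen and Col12a1 held the most reads, and their RIP and input values overlapped. Col18a1 (chr10:77052178-77166530) encodes a basement membrane collagen with heparan sulfate chains, the source of endostatin. It had 3137, 1579, 1216 and 1246 CPM in RIP libraries 1 to 4, against 2367, 1849, 695 and 1389.9 CPM in input libraries 1 to 4. As with type IV, RIP library 1 was highest and input library 3 lowest, and the log2 fold change was 0.19 (95% interval -0.61 to 0.98). Type VI collagen forms beaded microfilaments around cells, with alpha 1, alpha 2 and a larger chain in each unit. Col6a1 (chr10:76708792-76726044) had 454, 475, 422 and 399 CPM in RIP libraries 1 to 4, against 411, 408, 345 and 357 CPM in input libraries 1 to 4. It varied least of the chains with values in every library here, and RIP library 4 alone fell among the inputs; the log2 fold change was 0.20 (95% interval -0.24 to 0.64, adjusted p = 0.845).

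Col6a2 (chr10:76595756-76623630), the alpha 2 chain, had 762, 643, 548 and 530.2 CPM in RIP libraries 1 to 4, against 599, 750.3, 448 and 491 CPM in input libraries 1 to 4. Its groups overlapped, with a log2 fold change of 0.12 (95% interval -0.39 to 0.63). Col6a3 (chr1:90766860-90844001), the largest of these 3 chains, had 536, 412, 375 and 417 CPM in RIP libraries 1 to 4, against 309, 322, 296 and 435 CPM in input libraries 1 to 4. Inputs 1 to 3 lay below all RIP libraries and input 4 above 3 of them, and the log2 fold change was 0.35 (95% interval -0.13 to 0.84, adjusted p = 0.747). Col12a1 (chr9:79598987-79721141), which binds to the surface of type I fibrils, had 200.4, 286, 259.7 and 332 CPM in RIP libraries 1 to 4, against 255, 247, 339 and 328 CPM in input libraries 1 to 4. Its order differed from that of the chains above, with RIP library 1 lowest and input library 3 highest, and the log2 fold change was -0.12 (95% interval -0.61 to 0.38).

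Col13a1 (chr10:61838234-61979206), a collagen of the cell membrane found at adhesion sites and nerve-muscle junctions, was the only chain whose groups did not overlap. All 4 RIP libraries were above all 4 inputs, a pattern found in 2.77% of all tested genes in this direction, and 0 chains showed the reverse, against 2.52%. Col13a1 had 7.54, 5.52, 8.11 and 3.04 CPM in RIP libraries 1 to 4, against 1.85, 0.170, 0.783 and 0.874 CPM in input libraries 1 to 4. These rest on 102, 116, 173 and 64 counts in RIP and 22, 2, 23 and 24 counts in input. The log2 fold change was 2.71 (95% interval 0.79 to 4.64, unadjusted p = 0.00876), and the adjusted p of 0.622 did not pass. Over the alternatives the adjusted p of Col13a1 ranged from 0.0821 (DESeq2) to 0.9998, and none took it past the threshold.

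The remaining tested chains of this class were between -1.38 and 1.16 in log2 fold change. Col22a1, which marks junctions of muscle and tendon, had the lowest, -1.38 ± 0.83 (SE): it had 2.14, 2.33, 2.62 and 1.90 CPM in RIP libraries 1 to 4, against 4.37, 13.3, 0.988 and 4.81 CPM in input libraries 1 to 4. Input 3 lay below all RIP libraries and the other inputs above them. The fibril-associated chain Col9a2 was at -0.38 ± 0.37 and Col9a3 at -0.30 ± 0.44, and the short-chain collagen Col8a2 was at 0.54 ± 0.35 (SE). Among the further type VI chains, Col6a4 was at 0.38, Col6a6 at 0.22 and Col6a5 at -0.42. Col15a1, a basement membrane relative of Col18a1, was at -0.14, and the fibril-associated Col16a1 at 0.36 and Col14a1 at -0.12. Log2 fold changes were -0.05 for Col23a1, 0.07 for Col25a1, 0.32 for Col7a1 (the anchoring fibril of skin), 0.16 for Col20a1 and -0.12 for Col8a1.

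Col17a1, a component of hemidesmosomes, was even in RIP and uneven in input: it had 8.87, 5.62, 6.47 and 6.66 CPM in RIP libraries 1 to 4, against 3.61, 1.53, 0.170 and 15.7 CPM in input libraries 1 to 4, with a log2 fold change of 0.39 ± 0.89 (SE). Standard errors over 1 on the log2 scale were found for Col19a1 (-1.07 ± 1.38), Col10a1 (1.16 ± 1.48) and Col28a1 (0.77 ± 1.47), as for the fibrillar Col5a3. Col10a1, the collagen of hypertrophic cartilage, lies wholly within the annotated span of Nt5dc1, and the sources used here do not say how reads were assigned between the 2 genes. Col9a1 had 0 counts in all 8 libraries, and a count of 0 allows up to 3 counts, or 0.102 to 0.255 CPM, in a library.

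**Figure D2:**
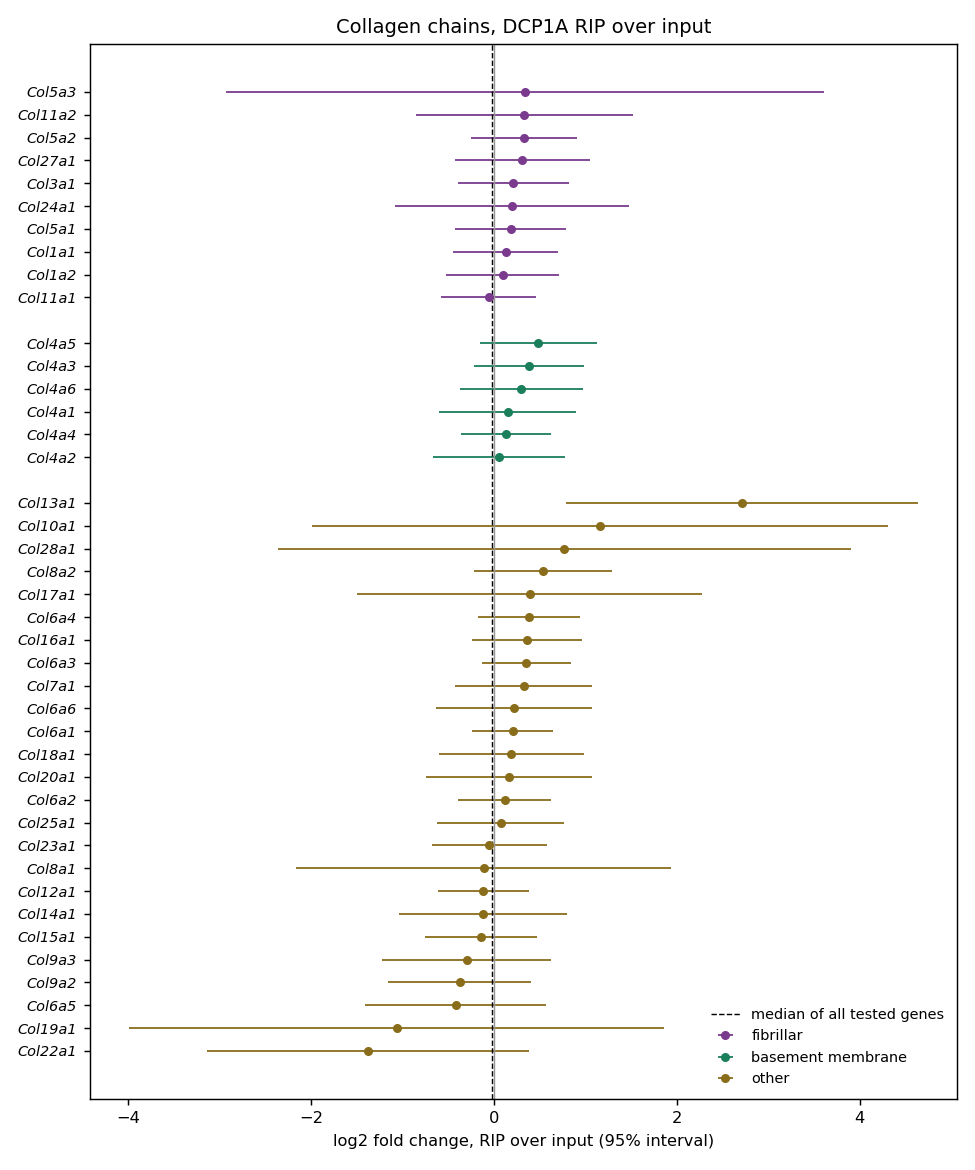
Log2 fold change of RIP over input with its 95% interval for the 41 tested collagen chains, grouped by class, with a dashed line at the median of all tested genes (-0.02). Only the interval of Col13a1 leaves out 0, and intervals widen for the chains with few counts.

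The share of counts taken by collagen differed more within each group than between RIP and input. All 43 chains together took 1.86%, 1.47%, 1.27% and 1.43% of the counts of RIP libraries 1 to 4, against 1.60%, 1.53%, 1.01% and 1.34% of the counts of input libraries 1 to 4. The means were 1.51 ± 0.25% in RIP and 1.37 ± 0.26% in input (SD, n = 4 each), and the difference was below the SD of either group. Leaving out 1 library at a time moved the difference of RIP minus input between 0.0166 and 0.217 percentage points, and without RIP library 1 and input library 3 it was -0.100 points. That pair holds the highest and the lowest share, so leaving it out lowers the difference by construction. The fibrillar share was 0.634 ± 0.099% in RIP and 0.576 ± 0.094% in input. The basement membrane share was 0.450 ± 0.098% in RIP and 0.411 ± 0.133% in input, and that of the other chains 0.424 ± 0.056% in RIP and 0.385 ± 0.054% in input. Of the collagen counts, the 6 chains with the highest mean CPM held 68.7 to 76.1% in RIP and 66.1 to 76.2% in input.

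Libraries numbered 1 and 2, in both groups, had the 4 highest summed CPM of each collagen class. The fibrillar sum was 9192, 6441, 4942 and 5455 CPM in RIP libraries 1 to 4, against 7004, 7513, 4214 and 4671 CPM in input libraries 1 to 4. The same 4 libraries had the highest sums of the granulosa markers and of laminins and other basement membrane proteins, and the largest share of counts in the 10 most counted genes, with Rn45s ribosomal RNA first. Granulosa markers summed to 2711, 2338, 1709 and 1856 CPM in RIP libraries 1 to 4, against 2401, 3065, 1396 and 1590.3 CPM in input libraries 1 to 4. Single granulosa genes differed in the order of libraries. Inha, Foxl2 and Amh were highest in input library 2 and Amhr2 in RIP library 1. Kitl and Inhba were highest in input library 3, and Kitl was lowest in RIP library 1. The 10 most counted genes took 31.5%, 24.9%, 22.7% and 15.2% of the counts of RIP libraries 1 to 4, against 30.5%, 30.9%, 12.4% and 16.4% of input libraries 1 to 4. Rn45s alone took 19.5%, 18.5%, 18.6% and 11.5% of the counts of RIP libraries 1 to 4. In input libraries 1 to 4 it took 11.8%, 12.5%, 4.57% and 6.53%. By itself Rn45s did not set these 4 libraries apart, as RIP library 3 lay above input libraries 1 and 2. The sum of the stromal markers was highest, 1540.1 CPM, in input library 3, where every collagen class was lowest, but single stromal genes differed in this. Of 11 tested stromal markers, 6 were highest in input library 3 (among them Wt1, Pdgfra and Dcn) and 3 in RIP library 1 (Gli1, Pdgfrb and Tcf21), and Gli1 was lowest in input library 3. The other stromal matrix proteins summed to 3966 CPM in RIP library 1 and 2633 CPM in input library 3, the highest and the lowest of the 8 libraries, as the collagens did. With the 10 most counted genes left out of library sizes, the fibrillar, basement membrane and other medians were 0.20, 0.22 and 0.16. Without those genes all collagen chains took 2.00 ± 0.50% of the counts in RIP and 1.82 ± 0.54% in input (SD). Beyond these values, the part of cell make-up and of the most counted genes in the collagen values was not tested. Within libraries numbered 1 and 2, the median log2 fold changes of the fibrillar, basement membrane and other chains were 0.19, 0.18 and 0.17. Within libraries numbered 3 and 4 they were 0.24, 0.30 and -0.07. In either subset 0 chains passed the test, against 0.19% of all genes for numbers 1 and 2 and 0.0389% for numbers 3 and 4.

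**Figure D3:**
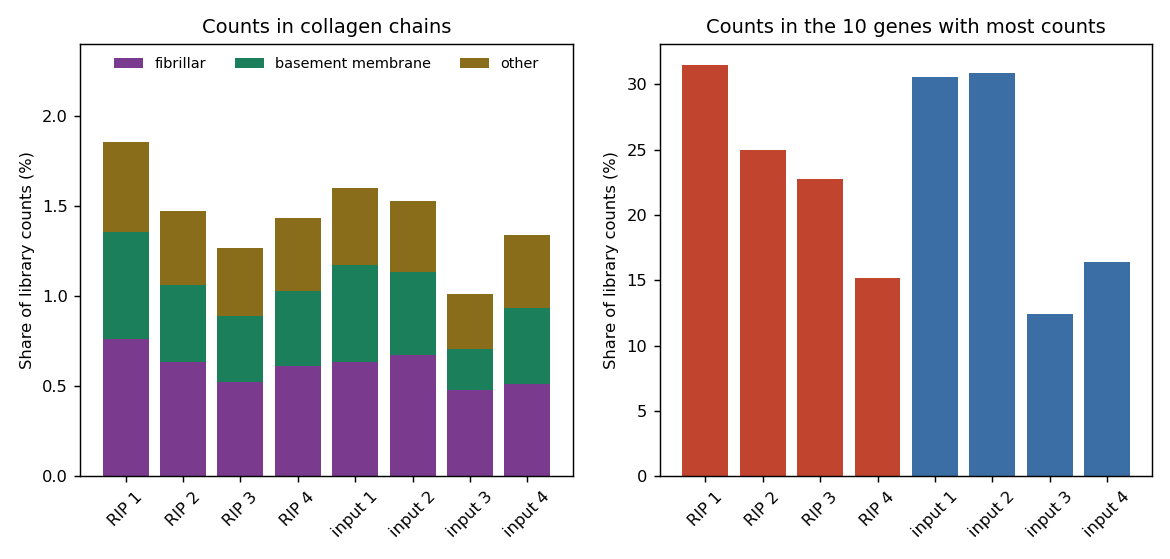
Share of each library's counts (percent) taken by fibrillar, basement membrane and other collagen chains, stacked, and share taken by the 10 most counted genes, with the 4 RIP libraries left of the 4 input libraries. The collagen share runs from 1.01% in input library 3 to 1.86% in RIP library 1, and the RIP and input bars overlap in height.

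For several pairs of chains the ratio of counts varied less across libraries than the levels did. Ratios need no scaling between libraries, are not divided by length, and were taken for 10 pairs chosen with earlier results of these data in view, so they are given without a test. Counts of Col4a1 per count of Col4a2 were 1.92, 1.86, 1.81 and 2.01 in RIP libraries 1 to 4, against 1.81, 1.79, 1.70 and 1.76 in input libraries 1 to 4. The SD of this ratio over the 8 libraries was 0.07 on the log2 scale, while that of log2 CPM was 0.61 for Col4a1 and 0.58 for Col4a2. It was the only ratio of the 10 in which the RIP range lay above the input range, and the gap between RIP library 3 and input library 1 was under the rounding printed here. The ratio averaged 1.90 ± 0.085 in RIP and 1.77 ± 0.047 in input (SD, n = 4 each).

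Col3a1 per Col1a1 gave 1.22, 1.07, 1.02 and 1.03 in RIP libraries 1 to 4, against 1.02, 1.05, 1.08 and 1.02 in input libraries 1 to 4. The log2 ratio had an SD of 0.09, against 0.41 for log2 CPM of Col3a1 and 0.36 for that of Col1a1. Col1a1 per Col1a2, the chains of 1 fibril, ran from 0.771 to 0.972 in RIP and from 0.752 to 0.912 in input, with an SD of 0.14 on the log2 scale. Col18a1 per Col4a1, both of basement membranes but on different chromosomes, ran from 0.591 to 0.768 in RIP and from 0.630 to 0.691 in input, with an SD of 0.11. Ratios were looser for Col6a1 per Col6a2 (0.19), Col5a1 per Col5a2 (0.22), Col4a3 per Col4a4 (0.26), Col6a3 per Col6a2 (0.33) and Col4a5 per Col4a6 (0.35), each value being the SD of the log2 ratio over 8 libraries. Col12a1 per Col1a1 was the loosest at 0.60, with 0.0914, 0.173, 0.199 and 0.227 in RIP libraries 1 to 4, against 0.145, 0.123, 0.324 and 0.264 in input libraries 1 to 4.

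**Figure D4:**
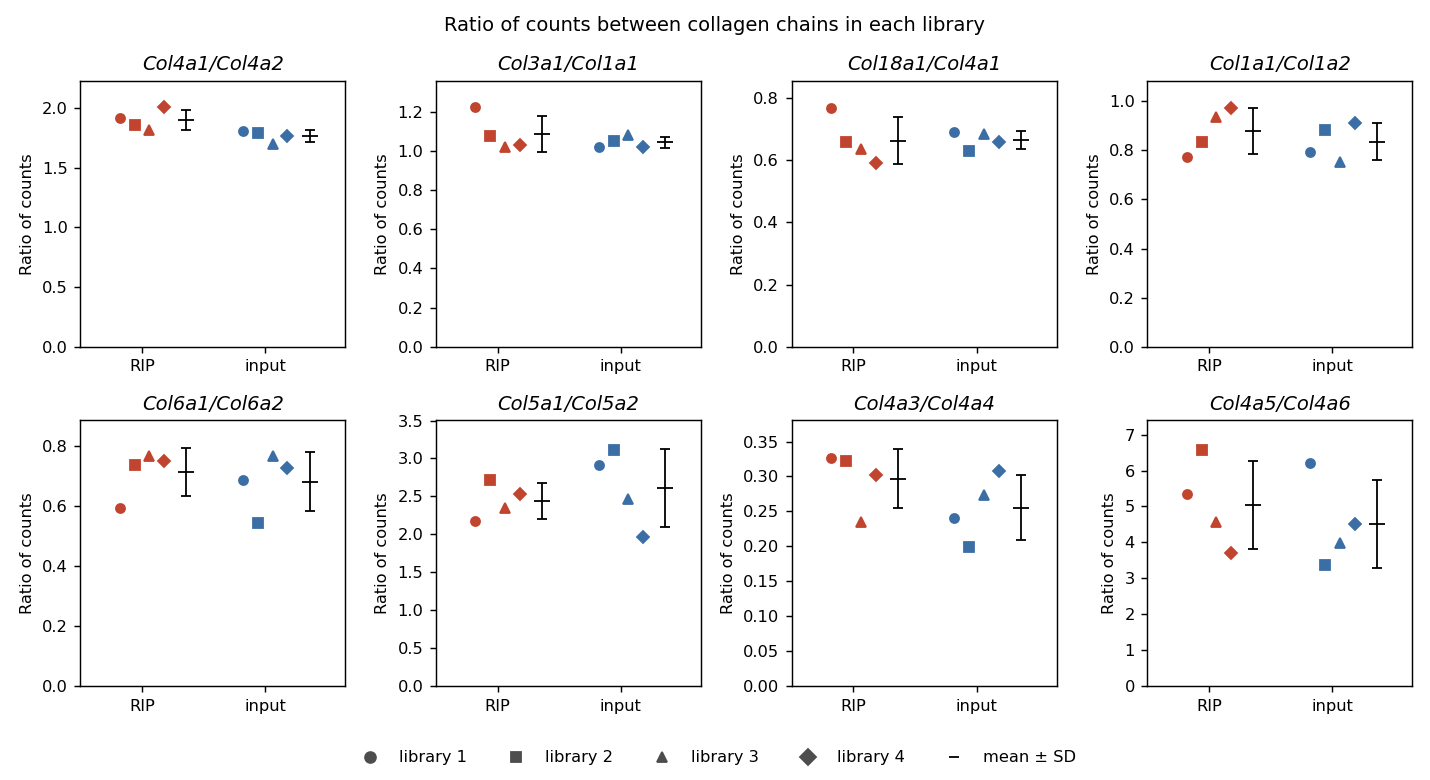
Ratio of counts between 8 pairs of collagen chains in each library, with RIP left of input and markers giving the library number. Col4a1 per Col4a2 stays between 1.70 and 2.01 in all 8 libraries, and Col4a5 per Col4a6 spreads from 3.37 to 6.56.

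Genes that act on collagen gave no call either: 0 of the genes tested in each of 8 lists passed the test, and all adjusted p-values of the genes named here were 0.622 or above. Of 20 modification and folding enzymes, 10 had a log2 fold change above 0, with a median of 0.03. P4hb, a subunit of the prolyl hydroxylase that stabilises the helix, averaged 508 ± 47.9 CPM in RIP and 396 ± 55.2 CPM in input (log2 fold change 0.36), and Fkbp14, a prolyl isomerase of the endoplasmic reticulum, 20.2 ± 4.75 CPM in RIP and 30.0 ± 10.6 CPM in input (-0.57). The median of 7 tested secretion genes was 0.07, and the COPII coat subunit Sec23a was at -0.34 and the collagen cargo receptor Mia3 at -0.45. Of 12 processing and crosslinking genes 7 lay above 0, with a median of 0.11. Adamts14, which removes the amino-terminal propeptide of procollagen, had 10.3, 11.1, 11.6 and 10.98 CPM in RIP libraries 1 to 4, against 3.87, 6.71, 3.88 and 5.32 CPM in input libraries 1 to 4. All its RIP values lay above all its inputs, as for 2 of 12 genes of this list (the other was Pxdn), against 2.77% of all tested genes. The log2 fold change of Adamts14, 1.15 ± 0.47 (SE), had an adjusted p of 0.625. The related Adamts2 was at 0.36. Of the processing list, 1 of 12 had an unadjusted p under 0.05, higher in RIP, against 3.15% of all tested genes.

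Of 10 collagen receptors 8 lay above 0, with a median log2 fold change of 0.33, although Itgb1, the beta 1 integrin subunit, averaged 167 ± 48.2 CPM in RIP and 281 ± 82.6 CPM in input (-0.75 ± 0.27 SE, adjusted p = 0.622). The endocytic receptor Mrc2 was at 0.56. Collagenases and their inhibitors had 4 of 8 tested genes above 0 and a median of 0.02, with the inhibitors Timp3 at -0.40 and Timp2 at -0.30. The proteoglycans that coat fibrils had 4 of 8 above 0 and a median of -0.04. Dcn, or decorin, averaged 80.5 ± 12.3 CPM in RIP and 142 ± 59.8 CPM in input (-0.81 ± 0.29 SE, adjusted p = 0.622), and Ogn, or osteoglycin, 7.59 ± 5.11 CPM in RIP and 24.2 ± 20.6 CPM in input (-1.67 ± 0.68 SE). RIP and input values of both overlapped. Without input library 3 the log2 fold change was -0.50 for Dcn and -1.08 for Ogn, and without RIP library 1 it was 0.35 for Mrc2. Counts at an unadjusted p under 0.05 were 1 of 10 for the receptors and 2 of 8 for the proteoglycans, all lower in RIP, against 4.28% of all tested genes.

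Laminins and other basement membrane proteins had 16 of 19 genes above 0 and a median log2 fold change of 0.33. Lama1, a laminin alpha chain, had 705, 825, 550.1 and 738 CPM in RIP libraries 1 to 4, against 491, 548, 345 and 518 CPM in input libraries 1 to 4, and RIP library 3 only just cleared the highest input (0.57 ± 0.23 SE, adjusted p = 0.625). Lama5 averaged 69.9 ± 35.0 CPM in RIP and 31.8 ± 13.8 CPM in input (1.14 ± 0.37 SE, adjusted p = 0.622), and its log2 fold change was 0.74 without RIP library 1. Other stromal matrix proteins had 13 of 18 above 0 and a median of 0.22. The elastic fibre proteins Fbln2 and Fbln5 had the lowest p of this list: Fbln2 averaged 31.6 ± 18.2 CPM in RIP and 11.4 ± 7.34 CPM in input (1.48, or 0.73 without RIP library 1 and input library 3), and Fbln5 39.3 ± 8.31 CPM in RIP and 23.3 ± 4.72 CPM in input (0.75). Counts at an unadjusted p under 0.05 were 2 of 19 for the laminin list and 2 of 18 for the stromal matrix list, all higher in RIP, against 3.15% of all tested genes. All RIP values lay above all inputs for 1 of 19 (Lama1) and 1 of 18 (Fbln5), against 2.77% of all tested genes.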

How the data were processed

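The authors deposited estimated counts for 23107 genes in 8 libraries, with mm10 as the genome build per the submitters' processing notes. At most 1.85% of a library's values were not whole (tolerance 1e-09), and all were rounded. The tests had been planned for whole counts and were kept. Immunoprecipitation used the Magna RIP kit and libraries a SMARTer stranded total RNA kit, per the labels' protocols. The sources used here name no aligner, counter, annotation or strand setting.

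RIP and input were compared with edgeR 4.0.16 under R 4.3.3, using TMM factors, filterByExpr (minimum count 10 in enough libraries, minimum total 15), robust quasi-likelihood dispersions and Benjamini-Hochberg adjustment over the 14667 genes kept, at 0.05. Fold changes are log2 of RIP over input. Each standard error is the size of the fold change over the root of F, and 95% intervals use the degrees of freedom of the fit. The common biological coefficient of variation was 0.559. A count of 0 was bounded by 3 counts, for counting error only. Alternatives used DESeq2 1.42.0, voom of limma 3.58.1 with sample weights, other scalings and filters, blocks, subsets, and each library left out. Leaving out RIP library 1 together with input library 3, and leaving single libraries out of the ratios, were chosen after seeing the data. The first removes the RIP library highest and the input library lowest for most of the 12 named chains. It lowers their fold changes by construction. The scripts were tested on simulated data.

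The members, classes and lists were chosen with earlier results of these data known. Values in every library are given for the 12 tested chains with the highest mean CPM and for any chain with an unadjusted p under 0.05, and each list names its 2 genes with the lowest p. Values in every library for Col4a5, Col22a1 and Col17a1, and the choice of ratios, were added after their values were seen. All 43 symbols matched RefSeq (GRCm38.p6), the source of the 1-based coordinates. Libraries of the same number were not treated as pairs: their deviations from the group means correlated at 0.16, 0.09, 0.18 and 0.12 for numbers 1 to 4. Correlations of RIP with input libraries ran from -0.003 to 0.27 within numbers 1 and 2 and within numbers 3 and 4. Across these sets they ran from -0.25 to -0.04. The reported fit has no block for this split, and a fit with it as a block is given below.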

Additional observations from a re-analysis of the deposited data

Results flagged for a closer look

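Groups of 4 libraries were checked for a library far from the other 3, over the levels of all chains with counts, the collagen shares, the 10 ratios and the named pathway genes. Of 144 groups 5 held one, while chance gives about 1 in 20 groups. In each the gap was above Dixon's critical value for 4 values. Col5a2 had 399 CPM in RIP library 1, and the other RIP libraries had 222, 227 and 229 CPM, a gap of 0.958 of the range. Without RIP library 1 and input library 3, where Col5a2 was highest and lowest, its log2 fold change was -0.08. Col28a1 had 4.06 CPM in RIP library 1, and the other RIP libraries had 0.666, 0.843 and 0.428 CPM. Col25a1 had 32.9 CPM in input library 3, and the other inputs had 17.4, 19.6 and 19.4 CPM. Col20a1 had 20.7 CPM in input library 1, and the other inputs had 10.02, 9.37 and 7.98 CPM. Col2a1, which was not tested, had 0.511 CPM in input library 3 and 0 in the other inputs.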

How the results depend on the processing

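No collagen chain passed the threshold in any alternative run, and the medians of the fibrillar and basement membrane chains changed sign only without RIP library 1 and input library 3. With voom the basement membrane median was 0.03, below the 0.07 of all tested genes. The fibrillar median was then 0.13 and that of the other chains 0.20. Counts of genes called higher in RIP (0 in the reported fit) were 13 by DESeq2, 13 with the replicate block, 3 for numbers 1 and 2 only, 12 with numbers 1 and 2 against 3 and 4 as a block, 1 without RIP library 1 and input library 3, and 0 to 1 with 1 library left out. Counts of genes called lower (6 in the reported fit) were 43, 42, 24, 43 and 21 in the same order of alternatives, and 4 to 16 with 1 library left out (16 without RIP library 1, 15 without input library 3). Medians with numbers 1 and 2 against 3 and 4 as a block were 0.28 (fibrillar), 0.26 (basement membrane) and 0.20 (other chains). In that fit the median of all tested genes was 0.03, and the lowest adjusted p of a chain was 0.207. The replicate block gave Col13a1 an adjusted p of 0.266. Libraries share only a number, RIP library 4 deviating most with input library 3 (r = 0.27). The median log2 fold change of the other chains was -0.072 for numbers 3 and 4 only, 0.017 without RIP library 1 and input library 3, and 0.04 to 0.19 with 1 library left out. With 1 library left out, the fibrillar median was 0.05 to 0.34 and the basement membrane median 0.02 to 0.33, the lowest of each without RIP library 1.

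Of 273 values of named chains under alternatives, 244 kept their direction and 29 did not. With voom, log2 fold changes were -0.030 for Col4a1, -0.070 for Col1a2, -0.085 for Col18a1 and -0.11 for Col4a2. With numbers 1 and 2 only they were -0.051 for Col4a2 and -0.038 for Col5a1. Without RIP library 1 and input library 3 they were -0.40 for Col4a1, -0.26 for Col1a2, -0.16 for Col3a1, -0.47 for Col18a1, -0.18 for Col1a1, -0.47 for Col4a2, -0.17 for Col5a1, -0.10 for Col6a2, 0.083 for Col12a1, -0.079 for Col5a2 and 0.056 for Mia3. With 1 library left out, ranges were -0.15 to 0.38 for Col4a1, -0.15 to 0.22 for Col1a2, -0.031 to 0.39 for Col3a1, -0.22 to 0.45 for Col18a1, -0.034 to 0.30 for Col1a1, -0.23 to 0.27 for Col4a2, -0.23 to 0.0038 for Col12a1, 0.0082 to 0.40 for Col5a1, 0.0064 to 0.28 for Col6a2, 0.077 to 0.47 for Col5a2 and -0.68 to -0.081 for Mia3. The cause was not tested. For chains highest in RIP library 1 and lowest in input library 3, a fall without both is built in. Other values that moved by over 1.5 times with 1 library left out were Fkbp14 (-0.38) and Timp2 (-0.19) without input library 2 and Sec23a (-0.19) without input library 4. Without RIP library 1 and input library 3, Itgb1 was at -0.36, Adamts2 at 0.17, Mrc2 at 0.18, Ogn at -0.88, Lama5 at 0.64 and Col6a3 at 0.18. Tested chains under 10 CPM had standard errors of 0.56 to 1.54 on the log2 scale, and the parts of counting error and of spread between libraries in them were not tested.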
